A study of Mus musculus with 6 samples.

Results

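The dual-specificity phosphatase (Dusp) and Sprouty genes described here are 10 genes of MAP kinase feedback: Dusp1, Dusp4, Dusp5, Dusp6, Dusp9, Dusp14, Spry1, Spry2, Spry4 and Spred1. All array probes whose platform annotation gives one of these symbols were taken, which yielded 14 of the 45281 probes and covered 9 of the 10 genes, out of 19057 genes with a named probe. The expression of Spry1 was not analysed here, since no probe carries its symbol. The genes were picked with the difference between the shEp400 and control arrays of this series already known, so their own differences are given as a description and without a test. Of the 9 genes with a probe, 7 had one above background on at least 3 of 6 arrays (Dusp1, Dusp4, Dusp5, Dusp6, Dusp14, Spry4 and Spred1). Dusp9 and Spry2 did not.

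The samples were mouse embryonic stem (ES) cells, 3 that received a shRNA against Ep400 (shEp400) and 3 labelled as control. The Ep400 protein is an ATPase that remodels nucleosomes as part of the Tip60 complex, and the series concerns what chromatin remodellers do in ES cells. In both groups the cells grew on mouse embryonic fibroblasts (feeder cells) inactivated with mitomycin C, in 15% serum with the cytokine LIF. Per the labels' protocols the shRNA vectors were pHYPER vectors introduced by electroporation, puromycin was added 24 h later, and RNA was prepared after 48 h of selection. The labels name no strain, ES cell line or clone, and they do not say what the control vector carried. The protocols name no step that separated the ES cells from the feeder cells. Whether the samples of a group were grown as separate cultures is not stated, so the p-values reflect the spread among these arrays alone, and that spread may be technical.

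MAP kinases such as ERK, JNK and p38 are switched on by phosphorylation of a threonine and a tyrosine, and DUSP phosphatases remove both phosphates. Sprouty and Spred proteins act earlier, between growth factor receptors and the Raf kinases. Many of these inhibitors are themselves transcribed in response to ERK signalling, so that the pathway restrains itself. In mouse ES cells, FGF4 signalling through ERK is known for promoting exit from the naive pluripotent state.

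RefSeq (GRCm38.p6) gave a window of 300 bases, 250 before and 50 after the start of the gene, for 7 of the 10 members. The windows of Dusp1 (chr17:26508423-26508722, minus strand), Dusp5 (chr19:53528895-53529194, plus strand) and Dusp6 (chr10:99262981-99263280, plus strand) are shown because they belong to 3 of the 4 members past the threshold below. Dusp4 is the remaining one. Capitals mark matches, on either strand, to the cyclic AMP response element (CRE) TGACGTCA, its half-site TGACG, the CArG box bound by serum response factor, the AP-1 site TGANTCA and the ETS site CCGGAAGT.
Dusp1: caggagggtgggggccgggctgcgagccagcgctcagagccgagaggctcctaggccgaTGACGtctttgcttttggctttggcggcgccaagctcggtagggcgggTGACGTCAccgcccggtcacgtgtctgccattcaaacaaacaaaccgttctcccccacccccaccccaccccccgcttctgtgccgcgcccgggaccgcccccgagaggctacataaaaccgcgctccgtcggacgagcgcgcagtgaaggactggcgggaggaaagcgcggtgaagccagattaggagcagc
Dusp5: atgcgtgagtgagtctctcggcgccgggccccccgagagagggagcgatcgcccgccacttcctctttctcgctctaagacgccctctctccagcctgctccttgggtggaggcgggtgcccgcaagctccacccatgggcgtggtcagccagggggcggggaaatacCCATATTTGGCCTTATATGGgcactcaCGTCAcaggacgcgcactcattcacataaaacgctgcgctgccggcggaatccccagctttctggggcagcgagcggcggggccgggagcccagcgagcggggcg
Dusp6: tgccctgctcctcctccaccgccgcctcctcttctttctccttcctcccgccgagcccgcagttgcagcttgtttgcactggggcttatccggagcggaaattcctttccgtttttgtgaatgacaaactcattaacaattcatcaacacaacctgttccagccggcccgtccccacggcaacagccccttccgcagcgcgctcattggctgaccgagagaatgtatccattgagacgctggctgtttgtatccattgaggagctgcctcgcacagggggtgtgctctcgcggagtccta

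The Dusp1 window held a full CRE at -143 to -136 relative to the start, which includes 2 half-sites on opposite strands, and a separate half-site at -191 to -187. A full CRE occurs in 1.79% of all 32851 windows of this length and a half-site in 20.8%. The Dusp5 window held 2 abutting CArG boxes, at -82 to -73 and -72 to -63, and a half-site on the opposite strand at -55 to -51. CArG boxes occur in 1.63% of all windows. None of the 5 motifs was in the Dusp6 window or in those of Dusp14, Spry1, Spry2 and Spred1. AP-1 sites occur in 7.81% of all windows and the ETS site in 3.89%. Base composition was rich in G and C, from 57.3% in Dusp6 to 72.3% in Spred1, against a median of 52.7% over all windows. A match is a string of letters and does not show that a factor binds there.

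Between 15441 and 17337 probes were above background per array (detection p under 0.01), with an upper quartile signal of 141 to 195. One slide carried all 6 arrays, each group side by side, so slide position and group cannot be told apart. Values below are log2 signals after background correction and quantile normalization, and differences are shEp400 minus control with the standard error (SE) of a limma fit over 9736 genes. Ep400 was 8.88, 9.11 and 9.14 in shEp400 cells, against 9.72, 9.58 and 9.56 in control cells. The 2 groups did not overlap (log2 change -0.58, SE 0.16, limma adjusted p = 0.0159), and the call was lost without control replicate 1 (adjusted p = 0.0611) and with cyclic loess normalization (adjusted p = 0.0631). Over all genes 43.7% were called (limma adjusted p under 0.05), 20.6% higher and 23.1% lower in shEp400 cells. Of the called genes 47.2% were higher, against 59.4% with cyclic loess normalization and 39.1% with 75th percentile scaling. The median log2 change of all genes was -0.06, and it was 0.05 with cyclic loess and -0.17 with 75th percentile scaling.

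Markers of the 2 cell populations of the culture also differed between the groups, on the same arrays as all results that follow. Of 33 fibroblast markers 30 had a probe and 25 were tested, of which 21 rose and 0 fell, with a median log2 change of 2.07. Their summed normalized signal ranged from 56509 to 89068 on the shEp400 arrays, against 14325 to 15911 on the control arrays. Postn was above background on 0 of 6 arrays, Col3a1 and Fap on at most 1, and Col5a2 and S100a4 on at most 2. Col1a2, Pdgfrb, Lum and Cald1 were tested and did not pass, while Col1a1, Lox, Acta2, Dcn and Thy1 were detected on every array. All 10 ES cell markers, Pou5f1, Sox2 and Nanog among them, were detected. Of the 10, 6 fell and 0 rose (median log2 change -0.74, summed signal 45168 to 60591 in shEp400 cells and 65739 to 68971 in control cells). Sox2 was among the falls (log2 change -1.60), while Pou5f1 (-0.49) and Nanog (-0.30) did not pass the threshold. Of 8 tested extraembryonic endoderm markers 5 rose and 0 fell. The rises were Gata6 (log2 change 2.45), Col4a1 (1.78), Pdgfra (1.54), Sox17 (1.46, with 1 of 3 control arrays above background) and Dab2 (1.12). Gata4 and Foxa2 were above background on 0 of 6 arrays. Of 3 tested trophectoderm markers 2 rose and 1 fell, while Eomes, Elf5 and Hand1 were above background on 0 of 6 arrays. The arrays do not show which cells the marker transcripts came from. How much a different feeder share or the other marker shifts contributed to the member differences was not tested. A change in the number of cells of a type cannot be told apart from a change in RNA per cell.

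The DUSP genes were on the higher side. Dusp1, Dusp4, Dusp5 and Dusp6 were 1.91-fold to 3.96-fold higher in shEp400 cells, and in each the 3 shEp400 values lay above the 3 control values. Dusp14 was also higher on average, but its groups overlapped. Of the Sprouty-type genes, Spry4 was lower and Spred1 nearly level, and both had overlapping groups. In all, 6 of the 7 measured members had a positive difference and 1 a negative one (median log2 difference 0.94). Past the threshold of the fit over all genes were 4 members, all higher, where 20.6% of all genes were called higher. Groups did not overlap in the same 4, against 55.5% of all genes, 25.1% with shEp400 cells higher and 30.3% with shEp400 cells lower. Since the members were picked on this contrast, nothing is read from these counts.

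**Figure D1:**
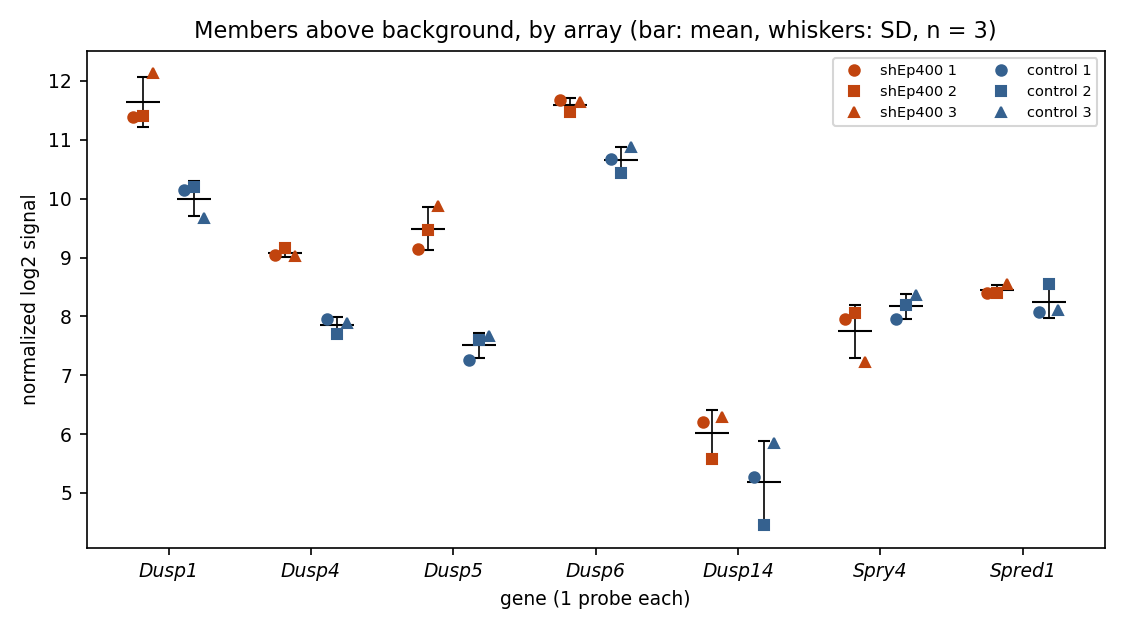
Normalized log2 signal (vertical axis) of the 7 members above background, by gene (horizontal axis), with 3 shEp400 arrays left and 3 control arrays right of each gene's centre. Bars are means and whiskers SD (n = 3 each). The groups are separate for Dusp1, Dusp4, Dusp5 and Dusp6 and overlap for Dusp14, Spry4 and Spred1. Levels of different genes come from different probes and are not to be compared.

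Dusp5 had the largest difference of the 7. It encodes a nuclear phosphatase selective for ERK and is induced by ERK. Its log2 signal was 9.14, 9.46 and 9.87 in shEp400 cells, against 7.26, 7.60 and 7.66 in control cells. The means were 9.49 ± 0.37 in shEp400 cells and 7.51 ± 0.22 in control cells (SD, n = 3 each), a log2 difference of 1.99 (SE 0.22, 3.96-fold). Of all tested genes 97.6% had a lower log2 change. Without background correction the difference was 1.57.

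Dusp1 encodes a nuclear phosphatase of JNK, p38 and ERK that is transcribed within minutes of growth factor or stress signals. Its log2 signal was 11.39, 11.41 and 12.13 in shEp400 cells, against 10.15, 10.19 and 9.66 in control cells. The array shEp400 3 stood above the other two, and the log2 difference was 1.64 (SE 0.24, 3.12-fold). Without that array it was 1.42.

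Dusp4, a nuclear phosphatase induced by ERK, was read by 4 probes, of which 3 were tested. The probe that represents the gene gave 9.05, 9.17 and 9.03 in shEp400 cells, against 7.96, 7.70 and 7.89 in control cells. Its log2 difference was 1.23 (SE 0.16, 2.35-fold), with little spread within either group. A second Dusp4 probe gave 9.23, 9.34 and 9.97 in shEp400 cells, against 7.38, 6.91 and 7.38 in control cells, a log2 difference of 2.29 (SE 0.23, 4.88-fold). A further one gave a log2 difference of 1.13 (SE 0.21). The 3 probes thus had the same direction, with log2 differences from 1.13 to 2.29. All 3 were past the threshold and separate between groups, where 41.3% of all probes were called and 53.5% did not overlap. Since the members were picked on this contrast, this describes the probes and is no test of them. Without control replicate 2 the second probe became the one with the highest mean, and the value for the gene was then 2.12. The remaining Dusp4 probe was above background on 2 shEp400 and 0 control arrays and was not tested.

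Dusp6 encodes the cytoplasmic phosphatase most selective for ERK, and its transcript is widely used as a readout of FGF signalling through ERK. Its representative probe gave 11.67, 11.47 and 11.64 in shEp400 cells, against 10.67, 10.43 and 10.88 in control cells. The log2 difference was 0.94 (SE 0.18, 1.91-fold). The other two Dusp6 probes gave smaller log2 differences, 0.63 (SE 0.17) and 0.40 (SE 0.20), the last from a probe above background on 2 of 3 control arrays. All 3 Dusp6 probes had higher values on each shEp400 array than on any control array, where 53.5% of all probes did not overlap. As for Dusp4, this is a description and no test. The probe with the smallest difference was not past the threshold of the fit over all probes. Its lowest shEp400 value was 5.58 and its highest control value 5.55. The mean over the probes gave 0.65, and 75th percentile scaling gave 0.68.

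**Figure D2:**
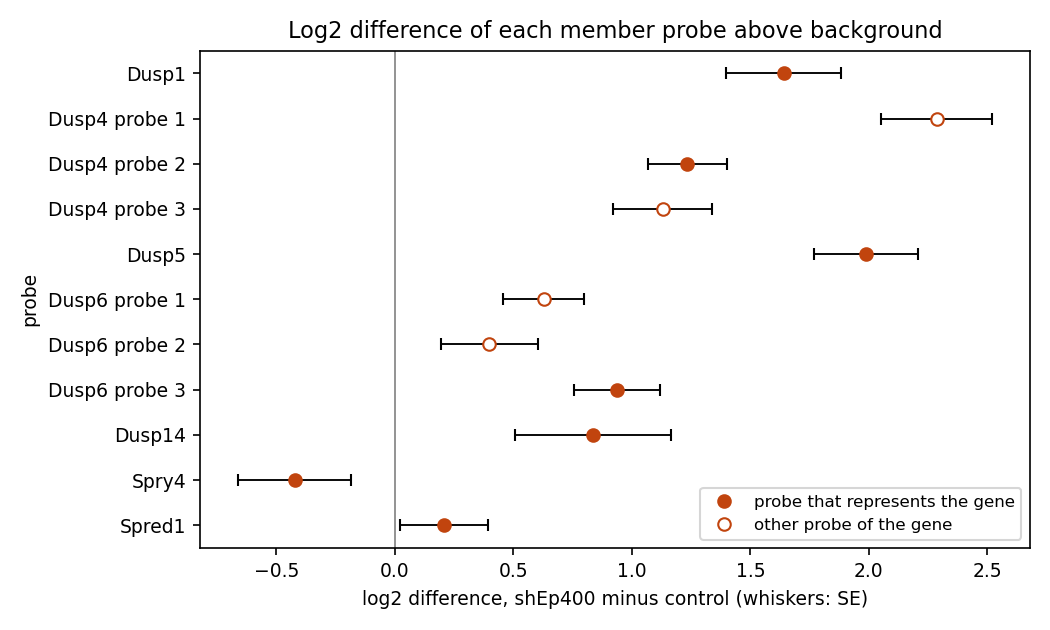
Log2 difference, shEp400 minus control (horizontal axis), for each of the 11 member probes above background (vertical axis), with whiskers for the SE in the fit over all probes. Filled points are the probes that represent a gene and open points the other probes of the same gene. The Dusp4 probes run from 1.13 to 2.29 and the Dusp6 probes from 0.40 to 0.94, and Spry4 is the only one below 0.

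Dusp14 encodes a small atypical phosphatase without the docking domain for MAP kinases that the larger DUSPs carry. Its signal was dim: the log2 values were 6.20, 5.58 and 6.30 in shEp400 cells, against 5.27, 4.45 and 5.85 in control cells, and 2 of the 3 control arrays were above background. The highest control value lay above the lowest shEp400 value. The log2 difference of 0.84 (SE 0.33) was 0.30 without background correction, 0.47 without control replicate 2 and 1.18 without control replicate 3.

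Dusp9 encodes a cytoplasmic phosphatase that in mouse ES cells is known to link BMP signalling to lower ERK activity. Its single probe was above background on 0 of 6 arrays, with raw signals of 104, 99.8 and 110 in shEp400 cells and 98.0, 108 and 104 in control cells. These signals do not tell the groups apart, and a transcript that this probe does not bind would be missed.

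Spry4, a membrane-associated inhibitor of the path from receptor to Ras and Raf, was the only measured member with a negative difference. Its log2 signal was 7.96, 8.06 and 7.22 in shEp400 cells, against 7.95, 8.20 and 8.36 in control cells. Arrays shEp400 1 and 2 lay within the control range, and shEp400 3 was the low one. The log2 difference was -0.42 (SE 0.24), and -0.16 without shEp400 replicate 3. With cyclic loess it was -0.28, and it stayed negative in each of the 14 alternatives. The 2 filters and the averaging of probes left it unchanged, since Spry4 has 1 probe.

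Spred1 brings the Ras inactivator neurofibromin to the membrane. Its log2 signal was 8.40, 8.40 and 8.55 in shEp400 cells, against 8.07, 8.55 and 8.10 in control cells. The control value of array 2 was level with the highest shEp400 value, and the log2 difference of 0.21 (SE 0.18) was about the size of its error. It ranged from 0.12 without control replicate 1 to 0.36 without control replicate 2.

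Spry2, the Sprouty gene best known as a feedback inhibitor of FGF receptors, had a probe above background on 0 of 6 arrays. The raw signals were 104, 93.4 and 110 in shEp400 cells and 94.2, 113 and 98.8 in control cells, so the arrays give no level for it in either group.

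By the probe that represents each gene, the members did not vary alike among the 3 shEp400 arrays. Set against the control mean, Dusp5 was higher by 1.64, 1.96 and 2.37 log2 units on shEp400 arrays 1, 2 and 3, and Dusp1 by 1.39, 1.40 and 2.13. Dusp4 was higher by 1.20, 1.32 and 1.18 and Dusp6 by 1.01, 0.81 and 0.98. Spry4 stood at -0.21, -0.11 and -0.95. Array shEp400 3 was thus the highest of the group for Dusp1 and Dusp5 and the lowest for Spry4. On the representative probes it was narrowly the lowest for Dusp4 and lay between the other two for Dusp6. The other tested Dusp4 probes both had shEp400 3 as the highest (9.23, 9.34 and 9.97, and 6.86, 7.07 and 7.19). Of the other Dusp6 probes, one had it highest (7.18, 6.94 and 7.26) and one in between (5.58, 6.05 and 5.68). The order of the arrays thus depended on the probe for Dusp4 and Dusp6. On the same arrays the median difference of the feeder markers was 1.58, 2.07 and 2.41, and that of the ES cell markers -0.37, -0.73 and -1.11. The part of these marker shifts in the member values was not tested.

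**Figure D3:**
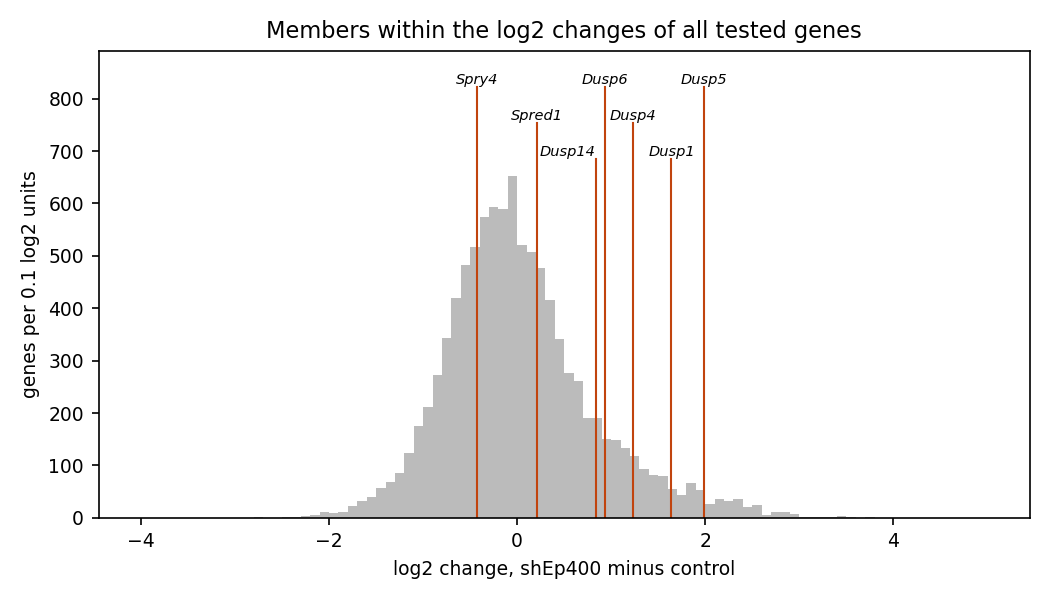
Number of genes (vertical axis) per 0.1 units of log2 change, shEp400 minus control (horizontal axis), for all 9736 tested genes. Vertical lines mark the 7 measured members, from Spry4 at -0.42 to Dusp5 at 1.99. Dusp5, Dusp1 and Dusp4 lie in the upper tail, and Spry4 and Spred1 within the bulk of genes.

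The genes nearest to Dusp5 in pattern were Prkar2b, a regulatory subunit of protein kinase A, Hspa1b, an inducible heat shock protein, and the histone gene H2ac18. Likeness was the root mean square difference of the log2 values, each gene centred on its mean over the 6 arrays, and it was 0.0900, 0.0961 and 0.111 for these genes against a median of 1.08 over all genes. Hspa1b and H2ac18 belong to families with near-identical copies, so their values are uncertain. For Spry4 the nearest were Dot1l, a histone methyltransferase, Cox8c and Zfp24 (0.0431, 0.0660 and 0.0815, against a median of 0.44). These are 6 arrays in 2 groups, so a gene with a difference between the groups of like size lies close to Dusp5 by this measure.

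Among other DUSP genes more rose than fell. Of 13 tested, from a list of 19, 5 rose, 1 fell and 7 did not pass, where 20.6% of all genes rose and 23.1% fell. The list's median log2 change was 0.27, against -0.06 for all genes. Without background correction 3 of 13 rose and 1 fell, where 1964 of 9736 genes rose and 2271 fell. With probes above background on all 6 arrays, 3 of 10 rose and 1 fell, where 1622 of 8089 genes rose and 2133 fell. Dusp10, a phosphatase of p38 and JNK, was 7.12, 7.30 and 7.33 in shEp400 cells, against 5.77, 4.80 and 5.62 in control cells. The rise was 3.62-fold, with SE 0.24 on the log2 scale (limma adjusted p = 0.000344), and it was detected on 2 of 3 control arrays. Dusp8, which acts on JNK and p38, rose 2.29-fold (adjusted p = 0.0065 in limma) with 1 of 3 control arrays above background. Both calls held without background correction, at log2 changes of 0.86 for Dusp10 and 0.46 for Dusp8. Dusp3, a small phosphatase of ERK and JNK, rose 2.09-fold (limma adjusted p = 0.0061), a call lost when its probes were averaged (log2 change 0.39, adjusted p = 0.189). Dusp27 fell by 1.14 on the log2 scale (limma adjusted p = 0.00245), or by 0.61 without background correction.

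Further inhibitors of receptor and Ras signalling formed the next list. Of 14 tested, from 18 listed, 6 rose, 0 fell and 8 did not pass, where 20.6% of all genes rose and 23.1% fell (median log2 change 0.57, against -0.06 for all genes). Errfi1, an inhibitor of the EGF receptor, was 11.53, 11.91 and 11.97 in shEp400 cells, against 9.92, 10.06 and 9.74 in control cells. That was a rise of 3.72-fold (log2 change 1.90, SE 0.18, limma adjusted p = 8.95e-05). Pea15a, which holds ERK in the cytoplasm, rose 2.87-fold (limma adjusted p = 0.000247), and Dok1, an adaptor that dampens tyrosine kinase signals, rose 2.61-fold (limma adjusted p = 0.00324). The log2 changes of Pea15a and Dok1 were 0.65 and 0.71 without background correction, and both calls held. Spry3, the remaining Sprouty gene and named here after its values were seen, was above background on 3 shEp400 and 0 control arrays. It is one of the 6 rises and entered the test through the shEp400 arrays alone, so no p is given for it. With probes above background on all 6 arrays, 5 of 11 genes of the list rose and 0 fell. Under that filter 1622 of 8089 genes rose and 2133 fell. Spred2 and Spred3 were not above background on enough arrays to be tested.

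Among transcripts that ERK signalling is known to induce, the 2 that fell were the ETS factors Etv4 and Etv1. Of 23 tested, from 28 listed, 16 rose, 2 fell and 5 did not pass, where 20.6% of all genes rose and 23.1% fell. The list's median log2 change was 1.08, against -0.06 for all genes. The rises include Egr3 and Maff, named after their values were seen, which were above background on 0 control arrays. With probes above background on all 6 arrays, 11 of 16 genes rose and 1 fell. Under that filter 1622 of 8089 genes rose and 2133 fell. Jun, a subunit of the AP-1 factor that JNK also induces, was 8.21, 8.33 and 8.59 in shEp400 cells, against 6.28, 5.32 and 5.86 in control cells, a rise of 5.87-fold (limma adjusted p = 8.21e-05) that was 1.51 on the log2 scale without background correction. Phlda1, an early response gene, rose 5.37-fold (limma adjusted p = 0.000116) and Ier3 4.45-fold (limma adjusted p = 0.000102). Fos, the partner of Jun in AP-1, was 8.31, 7.70 and 8.24 in shEp400 cells, against 7.37, 6.82 and 7.12 in control cells (log2 change 0.98, SE 0.22, limma adjusted p = 0.00536).

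Egr1, a classical immediate early gene of ERK, did not pass. Its log2 signal was 11.34, 11.16 and 12.02 in shEp400 cells, against 11.41, 10.52 and 11.43 in control cells, with overlapping groups (log2 change 0.39, SE 0.29, limma adjusted p = 0.306, and 0.09 on the log2 scale without control replicate 2). Etv4 and Etv5 are ETS factors downstream of FGF receptors. Etv4 was 9.99, 9.95 and 9.33 in shEp400 cells, against 10.84, 10.74 and 10.72 in control cells, and it fell by 1.01 on the log2 scale (SE 0.20, limma adjusted p = 0.00316). Etv5 was 10.36, 10.20 and 9.81 in shEp400 cells, against 10.44, 10.48 and 10.30 in control cells, and did not pass (log2 change -0.28, SE 0.19, limma adjusted p = 0.24). Etv1, a related factor, fell by 0.78 (limma adjusted p = 0.0464), with 2 of 3 shEp400 arrays above background. That call was lost without shEp400 replicate 2 (log2 change -0.43) and without each control replicate (limma adjusted p between 0.0605 and 0.156 over these 4 fits), and without background correction (log2 change -0.27, limma adjusted p = 0.0926). Dusp6 and Etv4, both transcripts with a known link to FGF and ERK, therefore differed from control in opposite directions on the same arrays.

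**Figure D4:**
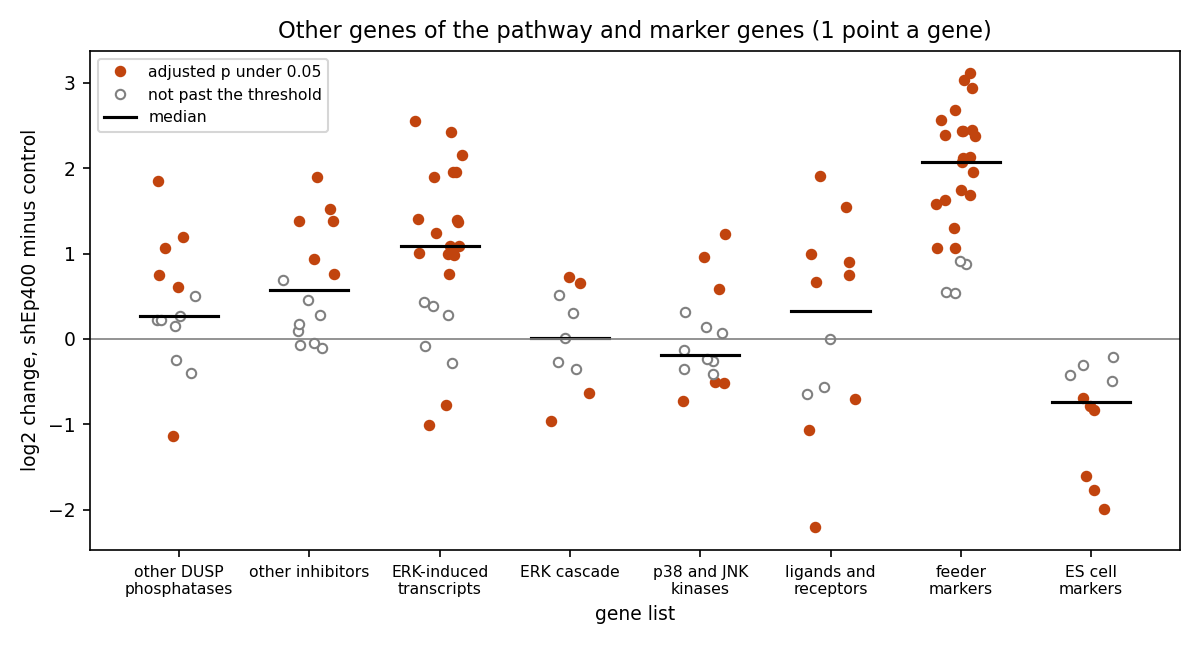
Log2 change, shEp400 minus control (vertical axis), of each tested gene in 6 pathway lists and 2 marker lists (horizontal axis), none of them a member. Filled points passed limma's adjusted threshold of 0.05, open points did not, and black bars are list medians. Medians run from 1.08 for ERK-induced transcripts to -0.18 for p38 and JNK kinases, with 2.07 for feeder markers and -0.74 for ES cell markers.

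Kinases and adaptors of the ERK cascade were called about as often as genes in general. Of 9 tested, from 22 listed, 2 rose (22.2%), 2 fell (22.2%) and 5 did not pass, where 20.6% of all genes rose and 23.1% fell. The median log2 change was 0.01, and with 75th percentile scaling 0 rose and 2 fell. The adaptor Shc1 rose 1.66-fold (limma adjusted p = 0.00627) and the phosphatase Ptpn11, which is needed for Ras activation, 1.57-fold (limma adjusted p = 0.00762). With 75th percentile scaling their log2 changes were 0.40 and 0.35, and neither passed (adjusted p = 0.0757 and 0.114). Gab1, a docking protein, fell by 0.97 on the log2 scale (limma adjusted p = 0.00401) and Nras by 0.63 (limma adjusted p = 0.00855). Mapk3 had no named probe and was not analysed here.

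Of 14 tested p38 and JNK pathway kinases, from 19 listed, 3 rose (21.4%), 3 fell (21.4%) and 8 did not pass. These shares are near the 20.6% and 23.1% of all genes. With cyclic loess 4 rose and 1 fell. The count of 6 calls was 3 without shEp400 replicate 2 and 1 without control replicate 1. Mapkapk2, a kinase activated by p38, rose 2.34-fold (limma adjusted p = 0.000957), a call held in all settings tried. The others were less stable. Mapk13 rose 1.94-fold, and leaving out control replicate 1 or 3 ended the call (limma adjusted p = 0.0565 and 0.065). Map2k4 rose by 0.58 on the log2 scale, and the call was lost with 75th percentile scaling (limma adjusted p = 0.0956) and without shEp400 replicate 2 or control replicate 1 or 3 (limma adjusted p between 0.0512 and 0.0864). Averaging its probes gave a log2 change of 0.28, which did not pass either (limma adjusted p = 0.138). Map2k6 fell by 0.73 on the log2 scale, or by 0.38 without background correction, and its call was lost without control replicate 1 (limma adjusted p = 0.0676). Map3k1 fell by 0.51 and Mapkapk3 by 0.50. When each array was left out in turn, the first call was lost 5 times of 6 and the second 4 times (limma adjusted p up to 0.108 and 0.109), with shEp400 replicate 1 the exception for Map3k1 and shEp400 replicate 3 and control replicate 3 the exceptions for Mapkapk3. The mean of the Mapkapk3 probes fell by 0.75.

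The receptors and FGF ligands gave 6 rises and 3 falls among 12 tested, from 19 listed, and 3 did not pass. Of all genes 20.6% rose and 23.1% fell, so the share of the list that fell (25%) is near that of all genes. The falls include Fgf15, which entered the test through the control arrays alone. With probes above background on all 6 arrays, 5 of 8 rose and 2 fell, where 1622 of 8089 genes rose and 2133 fell. Without control replicate 1, 5 were called. Egfr, the EGF receptor, was 8.38, 8.99 and 9.30 in shEp400 cells, against 6.84, 7.15 and 6.94 in control cells, a rise of 3.76-fold (limma adjusted p = 0.000231). Fgf1 rose 2.93-fold (limma adjusted p = 0.0062) with 2 of 3 control arrays above background, and its log2 change was 0.71 without background correction. Fgfr1 rose 1.59-fold and Fgfrl1 2.00-fold. The call of Fgfr1 was lost without shEp400 replicate 2 or control replicate 1 or 2 (limma adjusted p between 0.0569 and 0.0886) and without background correction (log2 change 0.26). That of Fgfrl1 was lost without shEp400 replicate 2 or 3 or control replicate 1 (limma adjusted p between 0.0607 and 0.0845), and its log2 change was 0.58 without background correction.

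Fgf4, the ligand that drives ERK in ES cells, was 5.83, 5.89 and 4.89 in shEp400 cells, against 6.33, 6.48 and 5.74 in control cells. It did not pass (log2 change -0.65, SE 0.29, limma adjusted p = 0.0953), and 2 of 3 shEp400 arrays were above background. Fgf17 fell by 2.21 on the log2 scale (limma adjusted p = 9e-05), or by 1.34 without background correction. Fgf15 was 4.84, 4.66 and 4.87 in shEp400 cells, against 5.33, 6.24 and 6.00 in control cells. It was above background on 0 shEp400 and 3 control arrays and entered the test through the control arrays alone, so no fold or p is given for it. Kit, a receptor, fell by 0.71 (limma adjusted p = 0.0463), or by 0.45 without shEp400 replicate 3, and its call held when shEp400 replicate 1 was left out but not without any other array (limma adjusted p up to 0.133).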

How the data were processed

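The deposited signal intensities are bead signals on a linear scale, 1 array per sample, neither scaled between arrays nor background-subtracted, as the values showed, and the file headers pair them with a deposited detection p-value. The submitters' processing notes name GenomeStudio. Its settings and the array's genome build are not given in the sources. The authors' deposited matrix of intensities has a median of 114 on every array, the pattern of quantile normalization, and served as an alternative. Of 45281 probes, 34885 had 1 gene symbol in the platform annotation, 18 had several and were left out, and 10378 had none. Entrez IDs matched 34807 probes to RefSeq (GRCm38.p6) and changed 0 symbols.

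Log2 values came from neqc in limma 3.58.1 (R 4.3.3), with the background estimated from the detection p-values, an offset of 16 and quantile normalization. A probe was tested if 3 or more arrays had it at a detection p under 0.01 (14238 probes), and a gene was represented by its probe of highest mean (9736 genes). Groups were compared with lmFit and eBayes, two-sided, with Benjamini-Hochberg adjustment over all genes at 0.05 and without covariates. Values of single probes come from the same fit over all probes, where 41.3% were called. The steps were tested on simulated data.

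The members, the gene lists and the settings were chosen with earlier results of these data known. Named are all members, Ep400, Egr1, Fos, Etv4, Etv5, Mapk3, Fgf4, Fgfr1, up to 3 rises and 3 falls per pathway list, and the 3 genes nearest in pattern to the highest and lowest member. One further gene of this rule is not reported here. Spry3, Egr3 and Maff fall outside the rule and were named after their values were seen. Alternatives were 2 normalizations, 2 background settings, the deposited matrix, 2 filters, averaged probes and leaving out each array.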

Additional observations from a re-analysis of the deposited data

How the results depend on the processing

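Under 14 alternatives each, 108 of 112 counts for the member group, the 6 pathway lists and the feeder markers stayed within 1.5 times. The exceptions were the ERK cascade list, with 2 calls under 75th percentile scaling, the p38 and JNK list, with 1 to 5 calls when 1 array was left out, and the receptor and ligand list, with 5 to 9. The count of members with a positive difference was 6 of 7 in each fit that left out 1 array, and 0 measured members changed sign in any alternative. Some alternatives could add little to this. The 2 filters did not change the value of any measured member they kept, and averaging cannot change a gene with 1 tested probe. The deposited matrix gave nearly the same member values as no background correction. Of 467 alternative values for the 34 other named genes, 417 kept their side of the threshold, 50 lost a call and 0 changed sign. Calls over all genes numbered 3000 to 4199 when 1 array was left out. Beside the losses given above, cyclic loess ended the calls of Map3k1, Mapkapk3, Etv1 and Kit, testing all probes without a filter those of Etv1, Fgfrl1 and Kit, and normexp without negative controls or the deposited matrix those of Fgfr1 and Etv1. The cause was not tested. The number of arrays limits the precision, and log2 changes of dim genes depend on the background step. No paired analysis was possible because the labels give no replicate numbers, and no slide block because there was 1 slide.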
